A study of Mus musculus with 6 samples.

Results

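The genes described here encode fibronectin and 8 other glycoproteins and proteoglycans of the extracellular matrix that have been described in metastatic niches. They were taken by symbol from the deposited table of read counts as Fn1, Postn, Tnc, Thbs1, Vcan, Bgn, Dcn, Lum and Sparc, which are 9 of the 20140 genes listed there. All 9 passed the filter on low counts, and each comparison below was fitted over the 16370 genes that passed it. Messenger RNA had been sequenced from 6 whole mouse livers taken on day 21, with 2 livers in each of 3 groups. The sham livers came from control mice given PBS. The premetastatic niche (PMN) livers came from mice with CT26 tumors in the cecum, labelled intra-C, and the metastasis livers came from mice given CT26 cells through the spleen, labelled intra-S. The labels name the groups only by these short names, beside entries such as the day and the cell line, given as PBS for controls. The injection sites and the names PMN and metastasis come from the paper. CT26 is a colon carcinoma line from BALB/c mice, and these models were made in BALB/c mice aged 6 to 10 weeks, with no genetic change or other agent named. For the same models the methods give 1000000 CT26 cells for the cecum and 50000 for the spleen, so the route, the number of cells and the presence of metastases cannot be told apart between PMN and metastasis livers. CT26 cells carry the mouse genome, and their transcripts cannot be told apart from those of the host in these counts.

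Fibronectin is a large adhesive protein that hepatocytes secrete into the plasma and that many cell types assemble into fibrils around themselves. Fibrils of fibronectin bind integrins on arriving cells, and fibronectin accumulates in organs that are being prepared for metastasis, where bone marrow-derived myeloid cells adhere to it. Around it act matricellular proteins, which modulate adhesion rather than bear load (thrombospondin 1, periostin, tenascin C and SPARC), and proteoglycans, which carry long sugar chains (versican, and the small leucine-rich biglycan, decorin and lumican). In the healthy liver, stellate cells and portal fibroblasts are the main source of most of these proteins other than plasma fibronectin.

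The genes lie on 8 chromosomes of the mm10 mouse genome (RefSeq coordinates on GRCm38.p6). Fn1 spans chr1:71585473-71653280 on the minus strand, Thbs1 spans chr2:118111876-118127133 on the plus strand and Vcan spans chr13:89655309-89743027 on the minus strand. Postn lies at chr3:54359267-54391041 on the plus strand, Tnc at chr4:63959785-64047015 on the minus strand and Sparc at chr11:55394159-55420080 on the minus strand. Bgn lies at chrX:73483601-73495936 on the plus strand. Dcn (chr10:97479500-97518163) and Lum (chr10:97565501-97572703) are neighbours on the plus strand of chromosome 10. Annotated transcripts of other genes overlap Fn1, Postn, Tnc, Thbs1 and Vcan, among them long noncoding and antisense RNAs and a pseudogene, and none of these partners is listed in the count table. The kit named in the labels is not described there as marking strand, and reads of overlapping transcripts cannot be told apart from those of these 5 genes.

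Promoter windows from RefSeq (GRCm38.p6, from 250 bases before to 50 bases after a start) were at hand for 5 of the 9 genes, namely Postn, Tnc, Sparc, Vcan and Bgn. They are shown for Vcan and Sparc, which were both called higher in metastasis livers, and for Bgn, a proteoglycan gene that was not called in any comparison. In all, 6 motifs were searched on both strands: the STAT motif TTCNNNGAA, the AP-1 motif TGANTCA, the SMAD motif CAGACA, the TATA box TATAAA, the cyclic AMP response element TGACGTCA and the GC box GGGCGG. The capitals mark the matches, 2 SMAD motifs in Sparc (36 bases before and 14 bases after the start), 2 GC boxes in Vcan (219 and 10 bases before it) and 3 GC boxes in Bgn (34, 10 and 6 bases before it, the last 2 of them sharing bases).
Vcan, chr13:89742463-89742762, minus strand: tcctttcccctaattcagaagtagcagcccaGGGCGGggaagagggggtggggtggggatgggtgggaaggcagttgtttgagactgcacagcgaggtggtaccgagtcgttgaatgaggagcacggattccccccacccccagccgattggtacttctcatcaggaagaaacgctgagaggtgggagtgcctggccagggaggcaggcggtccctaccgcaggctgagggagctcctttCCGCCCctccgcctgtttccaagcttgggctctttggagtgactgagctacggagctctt
Sparc, chr11:55420031-55420330, minus strand: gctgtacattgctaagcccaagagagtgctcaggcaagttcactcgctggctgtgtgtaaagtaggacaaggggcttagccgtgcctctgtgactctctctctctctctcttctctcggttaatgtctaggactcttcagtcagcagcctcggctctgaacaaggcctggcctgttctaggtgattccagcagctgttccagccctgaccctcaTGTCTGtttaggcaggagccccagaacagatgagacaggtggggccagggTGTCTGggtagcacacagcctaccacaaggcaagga
Bgn, chrX:73483351-73483650, plus strand: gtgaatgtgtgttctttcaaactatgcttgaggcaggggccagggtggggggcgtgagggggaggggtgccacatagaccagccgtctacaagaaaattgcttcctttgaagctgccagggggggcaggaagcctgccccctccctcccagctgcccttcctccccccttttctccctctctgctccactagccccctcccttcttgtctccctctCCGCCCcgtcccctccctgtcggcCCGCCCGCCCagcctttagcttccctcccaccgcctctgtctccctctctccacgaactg
Among all 32851 promoter windows of this length, 35.7% held a GC box and 6913 windows held a SMAD motif, so that such matches are common. A STAT motif was in 8.30% of windows an AP-1 motif in 7.81% and a cyclic AMP response element in 1.79%, and none of these had a match in the windows of these 5 genes. The 2 Tnc windows, whose starts lie close together, overlap and share the same TATA box and the same GC box. They also share 1 SMAD motif, 8 bases after the start of the upstream window and 71 bases before that of the other. Another SMAD motif lay 39 bases after the start of the other window, and Tnc was not called in any comparison. In the Postn window with the later start, a TATA box lay 26 bases before that start, a motif held by 13.6% of windows.

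Libraries held 32838321 to 43368309 counts. A level of 3 counts, called the floor here, came to between 0.0679 and 0.0928 CPM (counts scaled to a common library size with edgeR's TMM factors). In sham livers 44.2% and 44.9% of all counts fell on the 100 genes of highest count, and in the tumor groups it was 54.9% to 59.7%. Replicates agreed less in the metastasis group (r of log2 CPM over genes 0.928) than in the PMN (0.968) and sham (0.981) groups, and metastasis liver 1 stood apart for several genes given below. Hepatocyte markers summed to at least 110167 CPM in each library, and none of the defining transcripts was at 0 in any of the 6 livers.

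At the level of transcript per length, fibronectin was the most abundant of the 9 transcripts in all 6 livers. In TPM, a measure scaled for gene length and library size, Fn1 averaged 245 in sham, 943 in PMN and 719 in metastasis livers. Fn1 alone made up 48.7% and 50.1% of the summed TPM of the 9 genes in sham livers, 76.8% and 74.5% in PMN livers and 64.6% and 64.8% in metastasis livers. The other 8 genes together summed to 255 and 247 TPM in sham, 302 and 304 TPM in PMN and 401 and 383 TPM in metastasis livers. The groups did not overlap in either quantity.

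Below Fn1 came decorin and then biglycan and SPARC. Dcn averaged 148, 160 and 230 TPM in sham, PMN and metastasis livers. Bgn (47.4 TPM) stood above Sparc (38.3 TPM) in sham livers and in PMN livers (59.0 against 51.6 TPM), while in metastasis livers Sparc (69.7 TPM) stood above Bgn (51.2 TPM), in each case with no overlap between the livers. Postn and Lum lay lower, at 8.72 and 7.98 TPM in sham livers, where their values overlapped. They overlapped in metastasis livers as well, at 19.2 and 16.2 TPM, and did not in PMN livers, where Lum (16.7 TPM) stood above Postn (13.3 TPM). Tnc, Thbs1 and Vcan were near the bottom in sham livers, at 0.187, 0.141 and 0.0203 TPM, the first pair overlapping. Thbs1 stood above both other genes in the tumor groups, at 1.96 TPM in PMN and 5.70 TPM in metastasis livers. Vcan reached 0.606 TPM in PMN livers and 0.295 TPM in metastasis livers, where it overlapped with Tnc (0.165 TPM).

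**Figure D1:**
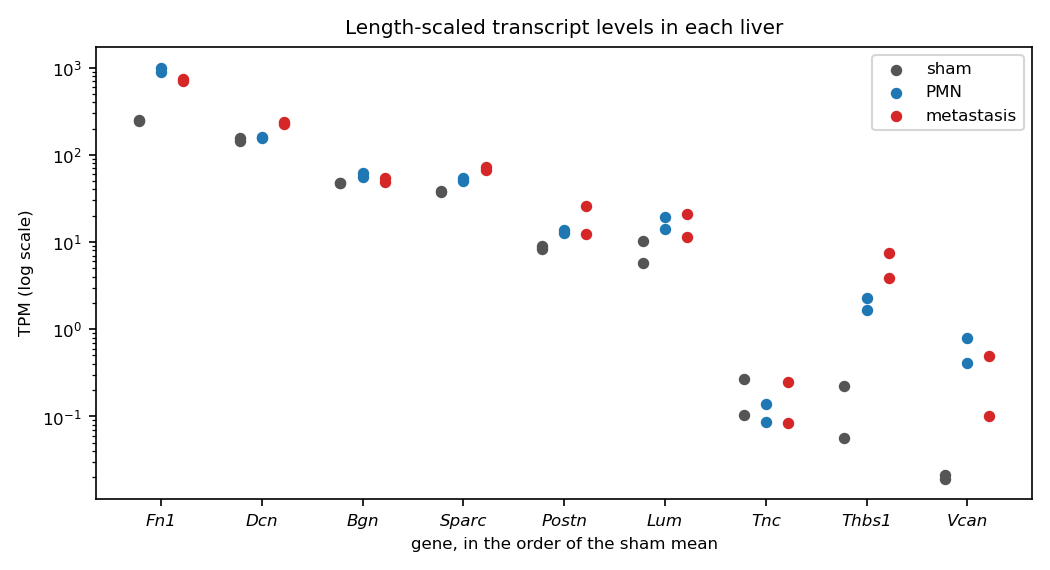
TPM (log scale) of the 9 genes in each of the 6 livers, in the order of the sham mean, with 1 point per liver and the groups in gray (sham), blue (PMN) and red (metastasis). Fn1 is highest in every liver, and Thbs1 and Vcan lie lowest in sham livers and higher in both tumor groups.

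Between sham and PMN livers the question was whether the transcripts of the matrix differ in the liver of a tumor-bearing mouse before metastases are present. Fibronectin, thrombospondin 1 and versican were higher in PMN livers, Fn1 by 4.40-fold, Thbs1 and Vcan from levels near the floor, and the other 6 genes did not pass the test. Of the 9 genes, 3 were called higher and 0 lower at an adjusted p under 0.05 (edgeR quasi-likelihood test, Benjamini-Hochberg adjustment over all tested genes), against 4.92% of all tested genes called higher and 2.38% called lower. At an unadjusted p under 0.05 the edgeR counts were 6 higher and 0 lower (15.2% and 11.8% of all tested genes), and DESeq2 called 4 higher and 0 lower (10.4% and 6.78%). The CPM of the groups did not overlap, with PMN livers higher, for 8 of the 9 genes, against 34.4% of all tested genes, and with PMN livers lower for 0 of the 9, against 34.0%. The median log2 fold change was 0.80 over the 9 genes and 0.01 over all tested genes. In bulk tissue, more cells of a type and more RNA per cell cannot be told apart. These p-values measure only the spread between livers of the same group, estimated over all 3 groups together, the metastasis livers included.

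Between sham and metastasis livers the comparison was of livers that had received tumor cells through the portal circulation with livers that had not. The same 3 genes were called higher, Fn1 by 3.61-fold, and Sparc and Dcn passed the test as well, by 2.24-fold and 1.91-fold. In all, 5 of the 9 genes were called higher and 0 lower (edgeR), against 6.78% and 3.95% of all tested genes. At an unadjusted p under 0.05 the edgeR counts were 7 higher and 0 lower (17.2% of all tested genes were higher, and 2132 genes were lower), and DESeq2 called 7 higher and 0 lower (12.6% and 8.95%). Metastasis livers stood above both sham livers, without overlap in CPM, for 8 of the 9 genes, against 30.4% of all tested genes, and below both for 0 of the 9, against 30.0%. The median log2 fold change was 1.30 over the 9 genes and 0.04 over all tested genes. The 2 sham livers are shared by these comparisons, and a low or high value in a sham liver enters each of them.

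The direct comparison of metastasis with PMN livers gave no call. With edgeR 0 of the 9 genes were called higher and 0 lower, and the same held for all tested genes (0.00% in each direction, smallest adjusted p 0.113). At an unadjusted p under 0.05, 3 of the 9 were higher and 0 lower, against 6.99% and 6.41% of tested genes, and DESeq2 called 0 of the 9 and 1.47% of genes higher and 1.73% lower. In TMM-scaled CPM the groups did not overlap for Thbs1, Dcn and Sparc, higher in metastasis livers (21.9% of all tested genes), and for Fn1 and Bgn, lower there (21.5%). The median was 0.54 over the 9 genes and 0.03 over all tested genes, and without metastasis liver 2 it was -0.13.

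**Figure D2:**
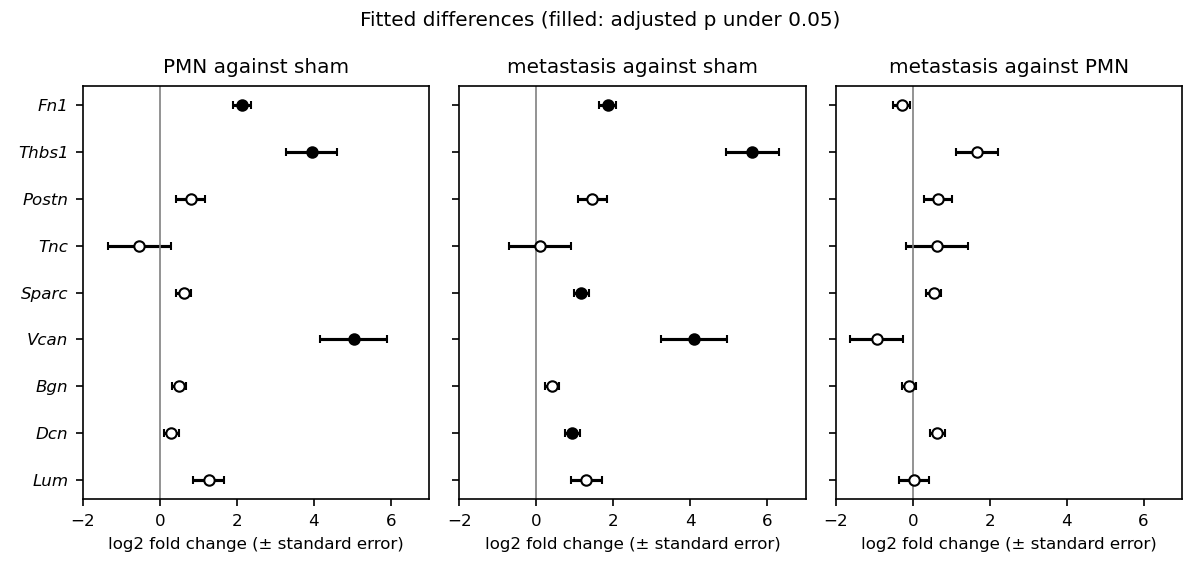
Log2 fold changes with their standard errors from the edgeR fit for the 9 genes in the 3 comparisons, where filled points mark an adjusted p under 0.05. Filled points are Fn1, Thbs1 and Vcan for PMN against sham, the same genes with Sparc and Dcn for metastasis against sham, and none for metastasis against PMN.

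Fibronectin (Fn1), the scaffold to which the other proteins bind, measured 910.4 and 936 CPM in sham livers. PMN livers held 4436 and 3682 CPM and metastasis livers 3509.7 and 3154 CPM. All 4 livers of tumor-bearing mice lay above both sham livers, and both PMN livers lay above both metastasis livers. The means were 923 ± 17.9, 4059 ± 533 and 3332 ± 251 CPM (SD, n = 2 livers each). In rank of TPM among all listed genes, Fn1 was at 568 and 560 in sham livers and between 106 and 157 in the other 4. The log2 fold change was 2.14 (SE 0.23, adjusted p = 0.00817, edgeR) for PMN livers and 1.85 (SE 0.23, adjusted p = 0.00936) for metastasis livers. Metastasis against PMN gave -0.28 (SE 0.22, adjusted p = 0.584, edgeR). Leaving out 1 liver of a compared pair of groups kept the fold and lost the call for PMN livers. The log2 fold change was then 2.12 and 2.16 without sham liver 1 or 2 (adjusted p = 0.148 and 0.139, edgeR) and 2.00 and 2.29 without PMN liver 1 or 2 (adjusted p = 0.0765 and 0.0597). For metastasis livers the call was lost without sham liver 1 or 2 (adjusted p = 0.133 and 0.121, edgeR) and was not lost without metastasis liver 1 or 2 (adjusted p = 0.000696 and 0.00028). With a liver left out, here and for the genes below, 1 group is a single liver that is assumed to vary like the livers of the other groups, since the spread then comes from those groups alone, so that such p-values are no measure of the stability of a call.

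**Figure D3:**
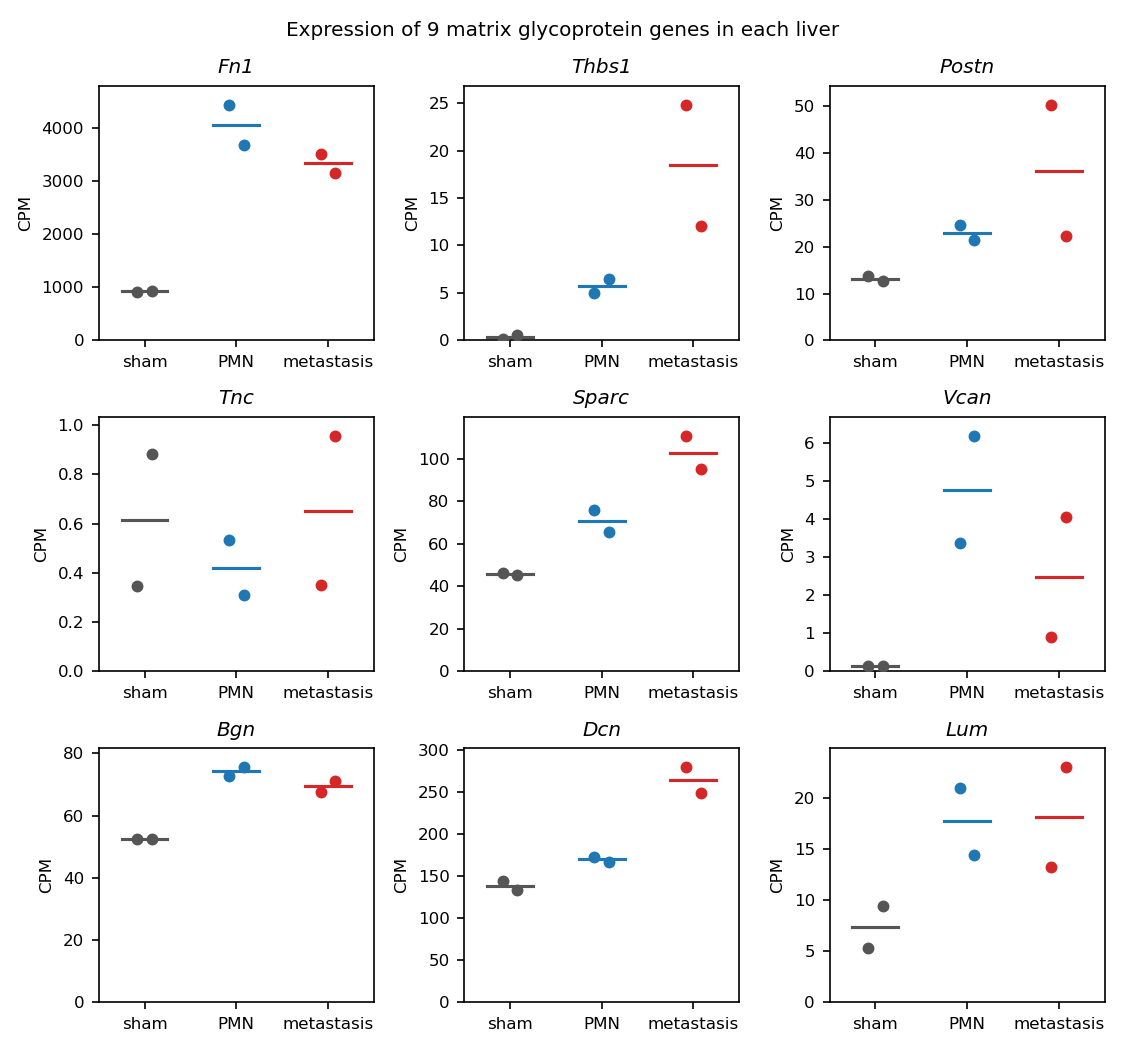
CPM of each of the 9 genes in the 6 livers, with 1 point per liver, a bar at the mean of the 2 livers of a group, and each vertical axis starting at 0. Fn1 stands at 910.4 and 936 CPM in sham livers and at 3154 CPM or more in the other 4, while the livers of Tnc overlap in every pair of groups.

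Thrombospondin 1 (Thbs1) is stored in platelet granules and secreted by many activated cells, and it inhibits angiogenesis and activates latent TGF-beta. It was at 0.148 and 0.589 CPM in sham livers, from 6 and 26 counts. In PMN livers Thbs1 was at 5.04 and 6.50 CPM, and in metastasis livers it was at 24.8 and 12.05 CPM. The 3 groups did not overlap, and they stood in the order sham, PMN, metastasis. Its log2 fold change was 3.94 (SE 0.65, adjusted p = 0.0245, edgeR) in PMN livers and 5.62 (SE 0.68, adjusted p = 0.00936) in metastasis livers. Metastasis livers exceeded PMN livers by 1.68 (SE 0.55, adjusted p = 0.322, edgeR). The sham livers differed by 3.98-fold from each other, and with 1 sham liver left out the fold for PMN livers went from 3.29 to 5.25 on the log2 scale and that for metastasis livers from 4.96 to 6.93. The PMN call was lost in each of these cases and without either PMN liver (adjusted p between 0.115 and 0.151, edgeR). The metastasis call was lost without sham liver 1 or 2 (adjusted p = 0.0871 and 0.0698, edgeR). Without metastasis liver 2 the difference from PMN livers passed the test (2.104, adjusted p = 0.0197, edgeR).

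Versican (Vcan), a large chondroitin sulfate proteoglycan that binds hyaluronan and is made by fibroblasts and by monocytes, was at 0.148 and 0.136 CPM in sham livers, from 6 counts in each. PMN livers held 3.36 and 6.19 CPM of Vcan, and metastasis livers held 0.904 and 4.05 CPM. Both tumor groups lay above the sham group and overlapped with each other, metastasis liver 1 being lowest of the 4. The log2 fold changes were 5.04 (SE 0.87, adjusted p = 0.0277, edgeR) for PMN and 4.10 (SE 0.86, adjusted p = 0.0343) for metastasis livers. Metastasis livers differed from PMN livers by -0.94 (SE 0.69, adjusted p = 0.568, edgeR). The 2 metastasis livers differed by 4.48-fold. Without metastasis liver 1 the fold against sham was 4.81 and without metastasis liver 2 it was 2.65 on the log2 scale, and both passed the test (edgeR, adjusted p = 0.0017 and 0.0157). Without metastasis liver 2 Vcan was called lower in metastasis than in PMN livers (-2.40, adjusted p = 0.0291, edgeR). The calls against sham were lost without sham liver 1 or 2 (adjusted p = 0.206 and 0.224 for PMN and 0.204 and 0.215 for metastasis, edgeR), and the PMN call was lost without PMN liver 1 or 2 (adjusted p = 0.104 and 0.129). The metastasis call was also lost when either PMN liver was left out of the fit (adjusted p = 0.073 and 0.0761, edgeR) and in limma on log2(TPM + 1) (0.33, adjusted p = 0.268) and on log2(TPM + 0.1) (1.52, adjusted p = 0.139). The PMN call was lost in the same limma fits (0.64 and 2.495, adjusted p = 0.0892 and 0.0591), and fold changes on these scales understate those of low genes.

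SPARC (Sparc) is a collagen-binding matricellular protein that is made by stellate and endothelial cells. It was at 46.4 and 45.3 CPM in sham, 75.7 and 65.5 CPM in PMN and 111 and 95.0 CPM in metastasis livers. The 3 groups did not overlap. Metastasis livers were above sham by a log2 fold change of 1.17 (SE 0.20, adjusted p = 0.0206, edgeR). The value was 0.62 for PMN livers against sham (SE 0.20, adjusted p = 0.105) and 0.54 for metastasis against PMN livers (SE 0.20, adjusted p = 0.341). The metastasis call was lost without sham liver 1 or 2 (adjusted p = 0.191 and 0.209, edgeR) and without PMN liver 1 or 2 in the fit (adjusted p = 0.0621 and 0.0623). Without metastasis liver 2 Sparc was higher than in PMN livers (0.65, adjusted p = 0.0398, edgeR).

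Decorin (Dcn), a small leucine-rich proteoglycan that binds collagen fibrils and TGF-beta, was at 143.8 and 133.8 CPM in sham livers. It was at 173 and 167 CPM in PMN livers and at 279.8 and 249 CPM in metastasis livers. Again the 3 groups did not overlap with TMM scaling, and the order was sham, PMN, metastasis. The log2 fold change was 0.93 (SE 0.19, adjusted p = 0.0333, edgeR) for metastasis livers and 0.29 (SE 0.19, adjusted p = 0.371) for PMN livers, which was 0.033 (adjusted p = 0.927, edgeR) with library size in place of TMM. Metastasis against PMN livers gave 0.64 (SE 0.19, adjusted p = 0.303, edgeR). The metastasis call was lost without sham liver 1 or 2 (adjusted p = 0.252 and 0.298, edgeR), without PMN liver 1 or 2 in the fit (adjusted p = 0.0951 and 0.0952), and with library size in place of TMM (0.65, adjusted p = 0.0723). It was also just lost with the replicate number as a block (0.93, adjusted p = 0.0504, edgeR). Without metastasis liver 2 the difference from PMN livers was 0.72 (adjusted p = 0.021, edgeR).

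Biglycan (Bgn), the closest relative of decorin and a ligand of Toll-like receptors 2 and 4 once released from the matrix, was at 52.4 and 52.6 CPM in sham livers, 72.9 and 75.6 CPM in PMN livers and 67.7 and 71.2 CPM in metastasis livers. With TMM scaling the groups did not overlap, and the pair of livers that differed most within a group, those with metastasis, differed by 1.05-fold. The log2 fold changes of 0.50 (SE 0.18, adjusted p = 0.135) for PMN and 0.40 (SE 0.18, adjusted p = 0.182) for metastasis livers did not pass the edgeR test. With library size in place of TMM they came to 0.24 and 0.13, and limma on log2(TPM + 1) gave 0.31 and 0.10.

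Lumican (Lum), the neighbour of decorin on the chromosome and a regulator of collagen fibril spacing, was at 5.27 and 9.46 CPM in sham livers. PMN livers were at 20.9 and 14.4 CPM and metastasis livers at 13.3 and 23.0 CPM. Both groups lay above sham and overlapped with each other. The log2 fold changes of 1.26 for PMN (SE 0.40, adjusted p = 0.109) and 1.30 for metastasis (SE 0.40, adjusted p = 0.089) did not pass the edgeR test, while both passed in DESeq2 (adjusted p = 0.039 and 0.0275). Without metastasis liver 1 the metastasis value passed in edgeR (1.65, adjusted p = 0.0206), and without metastasis liver 2 it did not (0.85, adjusted p = 0.122). The difference between the tumor groups was 0.04 (SE 0.40, adjusted p = 0.974, edgeR).

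Periostin (Postn), a matricellular protein made by activated fibroblasts, was at 13.8 and 12.6 CPM in sham livers and at 24.5 and 21.3 CPM in PMN livers. Metastasis livers were at 50.3 and 22.2 CPM. All 4 livers of tumor-bearing mice were above both sham livers, and metastasis liver 2 was between the PMN livers. The log2 fold changes were 0.80 (SE 0.37, adjusted p = 0.228) for PMN and 1.45 (SE 0.38, adjusted p = 0.0586) for metastasis livers, and neither passed the edgeR test. DESeq2 called Postn higher in metastasis livers (1.44, adjusted p = 0.00652). In edgeR the value was 0.75 (adjusted p = 0.031) without metastasis liver 1 and 1.93 (adjusted p = 0.000402) without metastasis liver 2. Metastasis against PMN livers gave 0.66 (SE 0.37, adjusted p = 0.468, edgeR), a value that was 1.13 (adjusted p = 0.00679) without metastasis liver 2 and -0.049 (adjusted p = 0.912) without metastasis liver 1.

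Tenascin C (Tnc), a matricellular protein of wounds and tumor stroma, was the only one of the 9 whose groups overlapped in every comparison. It was at 0.345 and 0.883 CPM in sham, 0.535 and 0.309 CPM in PMN and 0.350 and 0.957 CPM in metastasis livers, from between 10 and 39 counts per library. The log2 fold changes were -0.53 (SE 0.81, adjusted p = 0.716) and 0.09 (SE 0.79, adjusted p = 0.95, edgeR), and these differences were within the spread between livers. The sign of both differences turned when single livers were left out.

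**Figure D4:**
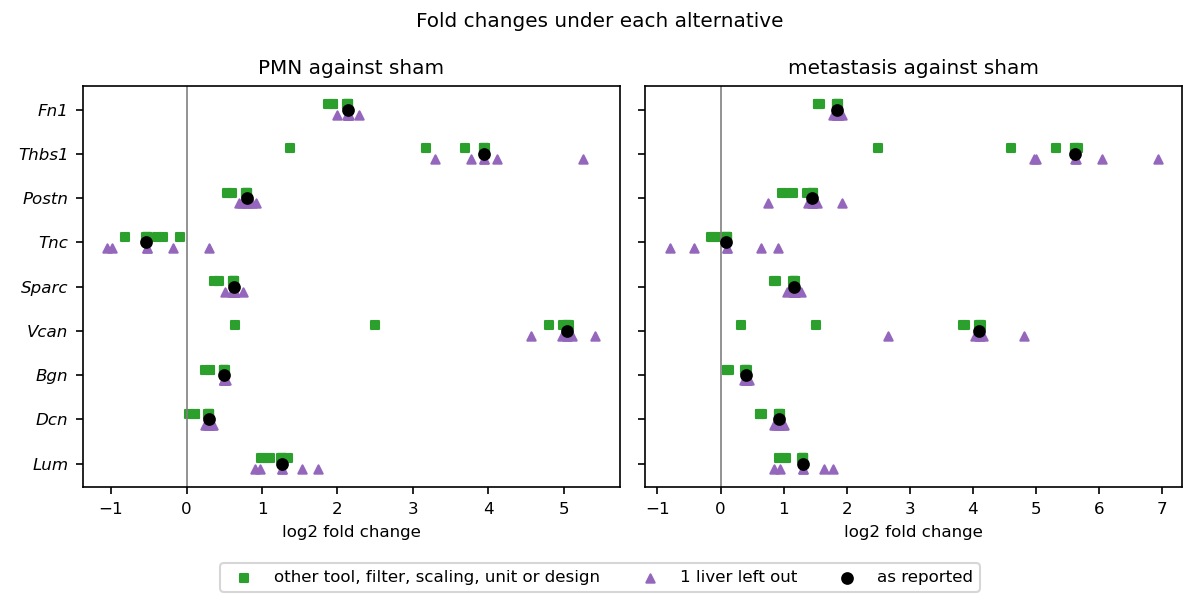
Log2 fold changes of the 9 genes against sham as reported (black), with another tool, filter, scaling, unit or design (green squares) and with 1 liver left out (purple triangles). Points stay on 1 side of 0 for each gene but Tnc, and those of Vcan and Thbs1 spread widest.

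Removing a liver of the group that was not compared also moved the number of calls, for the 9 genes and for the whole table. Without either metastasis liver in the fit, 7 of the 9 genes were called higher in PMN than in sham livers (Fn1, Thbs1, Vcan, Postn, Bgn, Lum and Sparc), and over all genes 2546 and 2502 were then called higher in place of 806. Without either PMN liver, 2 of the 9 were called higher in metastasis livers (Fn1 and Thbs1), and over all genes 375 of 17603 and 348 of 17623 were then called higher in place of 1110 of 16370. With a sham liver left out, 0 of the 9 passed in either comparison, and 0 of all tested genes passed as well. At an unadjusted p under 0.05, 3 and 4 of the 9 were then higher in PMN livers, beside 1527 of 17584 and 1449 of 17494 tested genes. In metastasis livers 6 and 7 of the 9 were higher at that threshold, beside 1725 and 1684 of the same tested genes.

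Cells adhere to these proteins and their sugar chains through integrins, syndecans and CD44, and Toll-like receptors signal on released biglycan. Of 24 tested receptor genes, 7 were higher and 0 lower in PMN livers (median log2 fold change 0.82), and 6 were higher and 0 lower in metastasis livers (median 0.67). For this and the lists that follow, the shares of all tested genes called were 4.92% higher and 2.38% lower in PMN livers (median 0.01) and 6.78% higher and 3.95% lower in metastasis livers (median 0.04). Itgb3, the beta chain that pairs with the alpha-v and platelet alpha-IIb chains to bind fibronectin and thrombospondin, was at 3.89 and 3.49 CPM in sham, 16.8 and 24.3 CPM in PMN and 61.9 and 21.9 CPM in metastasis livers, with both tumor groups above sham (log2 fold changes 2.48 and 3.50, edgeR adjusted p = 0.0385 and 0.0151). Cd44, the hyaluronan receptor, was higher as well (2.46 and 2.70, edgeR adjusted p = 0.0235 and 0.0153). The biglycan receptors Tlr4 (1.88 and 1.70) and Tlr2 (1.64 and 1.72) were called in both comparisons. Sdc3, a syndecan, was called in PMN livers (1.71, adjusted p = 0.0286, edgeR) and Itga2, the alpha chain of a collagen receptor, in metastasis livers (4.42, adjusted p = 0.0346). Sdc3 did not pass in metastasis livers (1.17, adjusted p = 0.0557, edgeR), nor did Itga2 in PMN livers (4.05, adjusted p = 0.0506, edgeR). The chains of the classical fibronectin receptor gave 0.38 and 0.33 for Itga5 and 0.52 and 0.54 for Itgb1, and none of these passed the test (edgeR adjusted p between 0.134 and 0.515).

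Among 40 tested genes of other matrix glycoproteins, 5 were higher and 0 lower in PMN livers (median 0.59), and 10 were higher and 0 lower in metastasis livers (median 0.97), against 4.92% and 6.78% of all tested genes called higher. Emilin2, an elastin-associated glycoprotein, was at 1.16 and 1.13 CPM in sham livers and between 17.2 and 20.5 CPM in the 4 other livers (log2 fold changes 4.14 and 3.98, edgeR adjusted p = 0.00543 and 0.00443). Vtn, encoding vitronectin, a plasma adhesion protein made by hepatocytes as fibronectin is, had 1878 and 1839.8 CPM in sham and 3763 and 3399.7 CPM in PMN livers (0.95, adjusted p = 0.0464, edgeR). In metastasis livers Vtn was at 3369.5 and 3280.6 CPM and did not pass (0.84, adjusted p = 0.0512, edgeR). Nid1, a basement membrane linker, was called in metastasis livers, where its 2 livers were at 140.3 and 49.0 CPM against 9.81 and 9.28 CPM in sham (3.31, adjusted p = 0.0184, edgeR). Matn2 and the F-spondin relative Spon2 were also called there (2.93 and 2.92), while Spon1 was called in both comparisons from between 0 and 4 counts in sham livers.

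Of 19 other tested proteoglycan genes, 2 were higher and 1 lower in PMN livers (median 0.40) and 4 were higher and 2 lower in metastasis livers (median 0.34). Of all tested genes 4.92% were higher and 2.38% lower in PMN livers and 6.78% and 3.95% in metastasis livers. Those higher in both comparisons were Gpc3, a cell surface glypican (log2 fold changes 2.82 and 3.28), and Srgn, the granule proteoglycan of blood cells (2.66 and 3.18). Podn, a small leucine-rich proteoglycan of the same family as decorin, was lower in both, at 5.40 and 5.89 CPM in sham, 1.20 and 0.371 CPM in PMN and 1.17 and 0.736 CPM in metastasis livers (-2.83 and -2.57, edgeR adjusted p = 0.0418 and 0.0419). Chad, another leucine-rich member, was lower in metastasis livers (-3.01, adjusted p = 0.0405, edgeR). Of 22 genes whose products cut, crosslink or mature the 9 proteins, 1 was higher in PMN livers (median 0.79) and 3 in metastasis livers (median 1.28), with 0 lower in each. The share for PMN livers is near that of all tested genes (4.92%). Those called were ADAMTS proteases, the family that cleaves versican: Adamts15 was higher in both comparisons (3.23 and 3.54, edgeR adjusted p = 0.0118 and 0.00782), and Adamts4 (5.30) and Adamts9 (2.62) were higher in metastasis livers.

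TGF-beta signalling induces many matrix genes. Of 23 tested genes of the pathway, 4 were higher and 0 lower in PMN livers (median 0.46) and 7 were higher and 0 lower in metastasis livers (median 1.09), against 4.92% and 6.78% of all tested genes called higher. The ligand gene Tgfb1 was at 3.72 and 3.51 CPM in sham, 7.13 and 10.2 CPM in PMN and 12.3 and 10.5 CPM in metastasis livers (log2 fold changes 1.26 and 1.66, edgeR adjusted p = 0.0456 and 0.0198). Tgfbr3, the co-receptor betaglycan (1.23 and 1.39), the feedback regulator Skil (2.99 and 2.57) and Lrg1, a secreted modulator of TGF-beta signalling (3.82 and 3.35), were called in both comparisons. In metastasis livers Ltbp1 and Lrrc32, which hold latent TGF-beta in the matrix and on the cell surface, were also higher (2.17 and 2.22). Between the 2 metastasis livers, liver 1 held 2.26 and 2.06 times as much Postn and Thbs1 as liver 2, while Vcan was higher in liver 2. No gene of the lists of receptors, matrix genes and TGF-beta signalling was called between metastasis and PMN livers by edgeR, in a comparison in which no gene of the table passed.

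Markers of the cell types that could supply these transcripts were counted in the same way, against 4.92% of all tested genes called higher in PMN and 6.78% in metastasis livers, and a single gene called in a list of this size is near that background. Of 12 tested markers of hepatic stellate cells, 0 were called in PMN livers and 1 (Rgs5) was higher in metastasis livers, and the summed level was 224 and 199 CPM in sham, 210.4 and 229 CPM in PMN and 327 and 233 CPM in metastasis livers. Of 10 tested myofibroblast markers, 1 (Col5a2) was higher in PMN and 4 (Lox, Col5a2, Col1a1 and Col1a2) in metastasis livers, with sums of 35.5 and 34.9, 52.8 and 45.6, and 74.9 and 135 CPM. Lox, with 0 and 1 counts in sham livers, was at 12.7 CPM in metastasis liver 1 and at 0.785 CPM in metastasis liver 2. The collagen gene Col1a1 was at 1.68 and 2.06 CPM in sham, 2.85 and 1.55 CPM in PMN and 6.24 and 8.49 CPM in metastasis livers, and Col1a2 reached 36.1 CPM in metastasis liver 2. Acta2, the smooth muscle actin of the list, was at 0.932 CPM or less in all 6 livers. Portal fibroblast and mesothelial markers had 1 of 11 called in each comparison (Pi16, which had 0 counts in sham livers), and their sums of 13.3 and 12.8, 20.02 and 8.20, and 17.6 and 28.2 CPM overlapped between sham and PMN livers. Of 9 tested hepatocyte markers 0 were called in PMN livers and 1 (Cyp2e1) was lower in metastasis livers. For Fn1, Dcn and the other genes of the set, the part of these cell types in the result was not tested.

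Larger shares of the markers of blood cells and endothelium were called, against the same 4.92% and 6.78% of all tested genes. Neutrophil markers were higher for 12 of 12 genes in both comparisons, with sums of 3.87 and 5.12 CPM in sham, 297 and 653 CPM in PMN and 1110.01 and 439 CPM in metastasis livers, and the defining granule genes Mpo, Elane and Camp had 0 counts in both sham livers. Monocyte and recruited macrophage markers were higher for 7 of 12 in each comparison (sums 54.7 and 60.6, 249 and 376, and 328 and 377 CPM), and Kupffer cell markers for 7 and 6 of 8 (154 and 151, 760.5 and 939.5, and 414 and 862 CPM). Platelet and megakaryocyte markers, the cells that store thrombospondin 1, were higher for 4 and 6 of 10 (8.48 and 11.5, 30.7 and 50.1, and 59.2 and 61.9 CPM). Gp1bb of that list had 0 counts in both sham livers. Endothelial markers were higher for 4 and 5 of 12 (116 and 129.6, 354 and 330.3, and 468 and 288 CPM), and proliferation genes for 2 and 9 of 14 (23.6 and 15.7, 41.2 and 52.2, and 111 and 108 CPM). Cholangiocyte and epithelial markers had 1 of 6 lower in each comparison and 1 higher in metastasis livers. None of these lists gave a call between metastasis and PMN livers (edgeR). The part of these cells, or of CT26 cells, in the levels of Thbs1, Vcan and Fn1 was not tested.

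**Figure D5:**
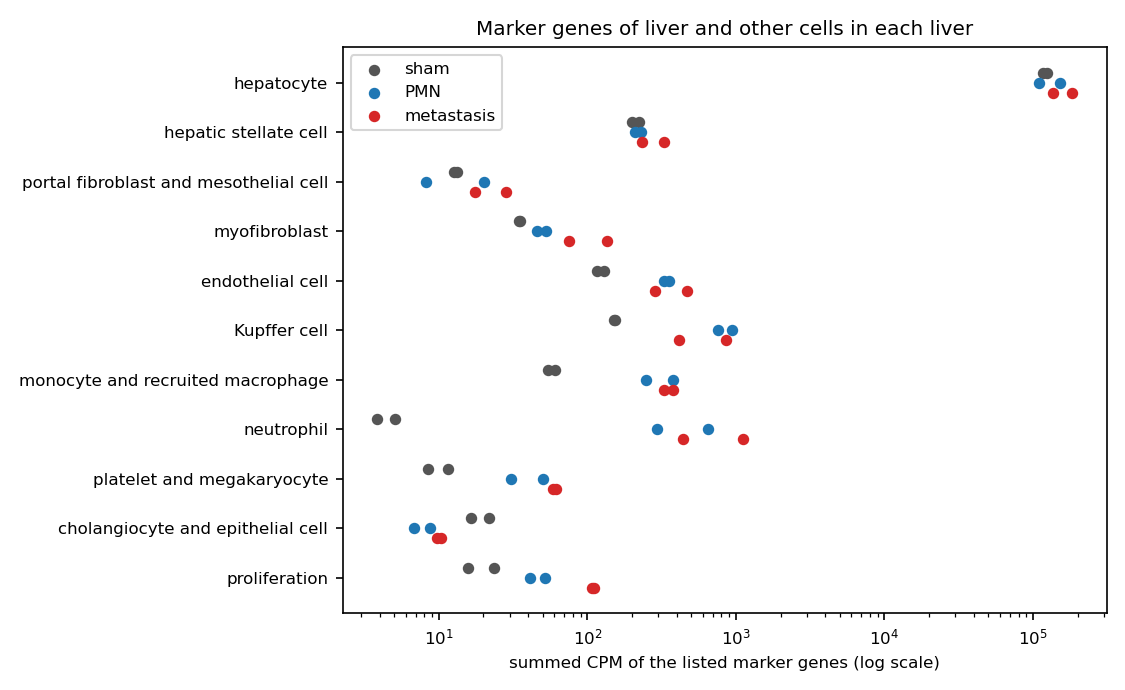
Summed CPM (log scale) of the marker genes of each cell type in the 6 livers, with 1 point per liver. Sham livers lie below all 4 others for neutrophil, monocyte, Kupffer, platelet, endothelial, myofibroblast and proliferation genes, while the sums for stellate cells lie between 199 and 327 CPM.

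Over the 6 livers, the 2 members with the most similar profile were Dcn and Sparc, whose centred log2 CPM differed by a root mean square of 0.146, and the least similar were Tnc and Thbs1, at 2.51. The members were also compared with 9276 other genes that had a mean of at least 5 CPM over the 6 livers. Those closest to Fn1 were the acute phase inhibitor Pzp (0.141), the ectoenzyme Cd38 (0.142) and the cytokine inhibitor Il18bp (0.155). Closest to Dcn was Igfbp7 (0.0532), a secreted matrix-associated protein, and closest to Thbs1 were the immediate early gene Egr1 (0.441) and the integrin chain Itgam (0.596). Vcan was nearest to Kcnt2 (0.338) and Sparc to Dtx3 (0.0932). These are differences between profiles of 6 livers that share the library and its scaling, and small values are common among genes of small range such as Bgn, whose nearest gene was Rasa1 (0.0346).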

How the data were processed

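The authors aligned the reads to the mouse genome mm10 (HISAT2 2.1.0), counted them on genes (featureCounts, Subread 2.0.6) and deposited raw counts per gene. A second deposited table gives TPM, which the authors scaled for gene length and library; the strand setting and the annotation are not given in the sources used here. Groups were taken from the labels, which give intra-C, intra-S and control; their meaning (cecal, PMN; splenic, metastasis), the mouse age and the cell numbers come from the paper.

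Counts were filtered with filterByExpr (minimum 10), scaled by TMM and fitted over all 6 livers with edgeR 4.0.16 (quasi-likelihood test, R 4.3.3), with no replicate block, at an adjusted p under 0.05 over all tested genes. The fit was tested on simulated data. Standard errors were derived from the log2 fold change and F. TPM served for levels between genes and, with limma 3.58.1 on log2(TPM + 1) and log2(TPM + 0.1), as an alternative. DESeq2 1.42.0, other filters and scalings, a fit of only the 2 groups compared, a replicate block and leaving out each liver were also tried. CPM are TMM-scaled; 3 counts were taken as the floor.

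The members and gene lists were chosen with earlier results of these data known. The genes named are the 9 members, up to 5 called genes of largest change per list with a mean of at least 1 CPM, defining markers, and the 3 genes of most similar profile per member. Itga5, Itgb1 and Acta2 were singled out of their lists after their values were seen. Promoter motifs were searched in RefSeq windows. Some genes of the lists are not reported here by name.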

Additional observations from a re-analysis of the deposited data

How the results depend on the processing

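With 2 livers per group the number of calls changed when single livers were left out. Of the 9 genes, 3 were called higher in PMN than in sham livers as reported, 1 with at least 10 counts in every liver (where Thbs1 and Vcan were not tested), 1 with limma on log2(TPM + 1), 7 with only the 2 groups compared, and 0 to 7 with 1 liver left out. For metastasis against sham livers the count of 5 was 3 with at least 10 counts in every liver, 2 with only the 2 groups compared and 0 to 7 with 1 liver left out. Limma on log2(TPM + 1) lost Thbs1 (adjusted p = 0.0533) and Vcan (0.0892) in PMN livers, and the fit of only 2 groups lost Vcan (0.0771), Dcn (0.0827) and Sparc (0.0595) in metastasis livers. For metastasis against PMN livers leaving out 1 liver gave 0 to 4 higher and 0 to 1 lower, and all of these calls came without metastasis liver 2, where the group is 1 liver assumed to vary like the others. The counts of all genes called higher moved as well. With only the 2 groups compared they were 2548 of 15649 in PMN livers, against 806 of 16370 as reported, and 276 of 15794 in metastasis livers, against 1110. With at least 10 counts in every liver they were 751 and 940 of 13018. With 1 liver left out they ranged from 0 to 2546 in PMN and from 0 to 3010 in metastasis livers. Between metastasis and PMN livers without metastasis liver 2, 1312 of 17429 genes were called higher and 1572 lower. Of the 9 genes, the number called lower against sham stayed at 0 in every alternative run (edgeR, DESeq2 and limma). The cause of these shifts was not tested.

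Direction turned for 5 of the 27 differences. Tnc in PMN livers ranged from -1.05 to 0.29 with 1 liver left out, and in metastasis livers from -0.81 to 0.92, with -0.15 by library size without TMM, -0.027 on log2(TPM + 1) and -0.13 on log2(TPM + 0.1). Between metastasis and PMN livers Tnc ranged from -0.28 to 1.16 and Postn from -0.049 to 1.13 with 1 liver left out. Lum there ranged from -0.42 to 0.38 with 1 liver left out and was -0.093 on log2(TPM + 1) and -0.10 on log2(TPM + 0.1). The cause was not tested.

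The replicate numbers of the labels did not pair the livers (correlation of same-numbered deviations -0.03, 0.08 and 0.04). With the replicate number as a block, 3 of the 9 were called higher in PMN livers, 4 in metastasis livers (Dcn was lost) and 0 between them, beside 673, 954 and 0 of all 16370 genes called higher, and Lum between metastasis and PMN livers was -0.046. Scaling by library size without TMM moved the median of all genes to -0.25 and -0.23 against sham; log2(TPM + 1) moved it to -0.10 and -0.15. The split of all genes called higher and lower in PMN livers was 806 and 389 as reported, 569 and 801 by library size and 497 and 896 on log2(TPM + 1), and in metastasis livers 1110 and 646, 838 and 1115, and 685 and 1553. DESeq2 called 1709 and 1110 in PMN and 2065 and 1465 in metastasis livers. Depth limits Tnc, and Vcan and Thbs1 in sham livers, which rest on 6 to 39 counts.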
